A study of Mus musculus with 7 samples.

Results

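The pyruvate dehydrogenase complex and its kinases were followed in the left ventricle of old male mice by taking every probe set of Pdk1, Pdk2, Pdk3, Pdk4, Pdha1, Pdhb, Dlat, Pdhx and Dld, the genes of its subunits and kinases. Of these 9 genes, 8 had a probe set that named them alone, and the 8 genes had 13 of the 22626 probe sets on the array. No probe set named Pdhx, which encodes the E3-binding protein of the complex, so that it has no value here. The knockout mice carry the label eNOS (-/-) and lack endothelial nitric oxide synthase, the enzyme of the vessel lining that makes nitric oxide and that the gene Nos3 encodes. They numbered 3 (M4, M10 and M140), and 4 wild-type mice (M23, M125, M128 and M158) stood against them, all male and 21 months old, with 1 MOE430A array of left ventricular RNA per mouse. The labels describe failing heart function and high mortality in knockout males of this age. They give no strain, no design of the knockout allele, no litter, and, although a keyword names exercise, no exercise group. The Nos3 probe set read 1145, 1413 and 1135 in the knockouts, against 791, 1163, 872 and 1058 in the wild types, and it does not check the labels, since the sources used here do not say where its probes lie relative to the deletion. Values are intensities on a linear scale as deposited, and differences are of log2(intensity + 16), knockout minus wild type. Tests covered the probe sets that exceeded the 40th percentile of an array in 3 or more mice, and all 13 did.

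The complex sits in the mitochondrial matrix and turns pyruvate into acetyl-CoA, which commits carbon from glucose and lactate to oxidation. Its E1 enzyme (Pdha1 and Pdhb) removes carbon dioxide from pyruvate, E2 (Dlat) passes the acetyl group to coenzyme A on a lipoyl arm, and E3 (Dld) reoxidizes that arm. The kinases Pdk1 to Pdk4 phosphorylate the E1 alpha subunit and switch the complex off, and phosphatases switch it on again. In heart muscle Pdk4 is known as the isoform whose transcript goes up in fasting and diabetes together with genes of fatty acid use. In mouse these genes lie on chromosomes 2 (Pdk1 and Pdhx), 6 (Pdk4), 9 (Dlat), 11 (Pdk2), 12 (Dld), 14 (Pdhb) and X (Pdk3 and Pdha1).

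Median intensity was 671 to 699 per array. Values stopped at 44145 to 45552, a ceiling reached by 51 to 104 probe sets per array. All 7 listed markers of ventricular muscle stood at this upper limit in each of the 7 mice, so they show cardiac muscle but no difference between mice, and several of them are atrial genes too. Hybridization day, coded 1 to 4, was uneven. Knockout M140 and wild-type M128 shared day 1, knockouts M4 and M10 had day 3, wild-type M125 had day 2, and wild types M23 and M158 had day 4. Only day 1 holds both groups, so a difference within a day is that of 1 mouse from 1 mouse. A fit with day as a fixed block has this same estimate and takes its error from the spread between mice within a day. The ratio of the 5' to the 3' Gapdh control probe set is a sign of RNA quality. It was 0.532, 0.521 and 0.759 in the knockouts and 0.0978, 0.777, 0.683 and 0.340 in the wild types. The 3' value itself was at the ceiling in every mouse but M158, where it was close to it (45466 against 45552). In the other mice the ratio is therefore an upper bound. The 4 tested markers of atrial muscle summed to 47537 to 71833 in the knockouts and 9349 to 74263 in the wild types. In M4 and M140, the marker Nppa, at the ceiling (44868 and 45540), made up most of this sum. There Myl4 read 2354 and 1113, and Sln 708 and 477. Of the 4 markers, Myl7, an atrial light chain, read 1207, 17557 and 407 in the knockouts and 356, 16097, 2926 and 399 in the wild types. It was high in M10 and M125 and raised in M128, which goes against a label of left ventricle alone in these mice. The 4 macrophage markers summed to 15152 to 16628 in the knockouts and 10918 to 13169 in the wild types. At an unadjusted p under 0.05, 3 of the 4 were higher, against 6.74% of all tested genes. The 2 tested red cell markers summed to 4686 to 9480 in the knockouts and 3371 to 4188 in the wild types, 2 of the 2 higher at that p. Of the other lists, 1 of 4 tested atrial markers was higher at that p. In skeletal muscle 1 of 2 tested markers was lower, against 5.4% of all tested genes. No listed marker passed an adjusted p of 0.05. What these differences contribute to the results below was not tested.

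Pdk4 transcript was lower in the knockouts on average, but the wild-type mice differed among themselves by more than the groups did. Its only probe set (1417273_at) read 15022, 6120 and 6608 in knockouts M4, M10 and M140, against 7644, 36260, 28331 and 9657 in wild types M23, M125, M128 and M158. The groups overlapped: M125 and M128 stood above every other mouse, while M23 and M158 lay inside the knockout range. The means were 9250 ± 5005 in knockouts and 20473 ± 14054 in wild types (SD, n = 3 and 4), and the log2 difference was -0.97 ± 0.59 (SE, 95% interval -2.34 to 0.40). It missed the threshold of 0.05 in limma (adjusted p = 0.583), and an exact two-sided permutation test over the 35 ways of dividing the arrays gave 0.286, where 0.0286 is the smallest p that test can give. Within day 1 the difference was -2.10, which the fit with day as a fixed block gave an SE of 0.64 (limma, unadjusted p = 0.0256, adjusted p = 0.264). With day as a random block it was -1.24 (adjusted p = 0.478). The estimate depended on the arrays used: it was -0.14 with array weights, -0.59 without M125, -0.36 without M10 and M125, the mice with most atrial transcript, and -1.92 without M23 and M158, the wild types with the lowest Gapdh ratio.

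The other kinases were higher on average in the knockouts. Pdk2, the most widely expressed isoform, read 6742, 9769 and 4427 in knockouts against 3157, 6223, 2970 and 4967 in wild types. Only M4 and M10 lay above all wild types, and the means of 6979 ± 2679 in knockouts and 4329 ± 1551 in wild types gave a log2 difference of 0.68 ± 0.34 (adjusted p = 0.488), which was 0.40 without M10 and 0.97 without M140. Its range among wild types was 1.06 on the log2 scale. Pdk1, a target of the hypoxia factor HIF-1, had a pair of probe sets. The first (1423747_a_at) read 2715, 2385 and 3353 in knockouts against 2385, 2284, 2070 and 1799 in wild types, so that the groups met at 1 shared value, of M10 and M23. Its difference was 0.39 ± 0.16 (95% interval 0.024 to 0.76, adjusted p = 0.403, exact permutation p = 0.0571). The second (1423748_at) read 3562, 3804 and 4088 in knockouts against 3165, 3306, 3190 and 3852 in wild types, with a smaller difference of 0.18 ± 0.13 (adjusted p = 0.656). Pdk3, whose human gene is mutated in a form of Charcot-Marie-Tooth disease, was above the 40th percentile on 6 of 7 arrays. It read 562, 709 and 679 in knockouts against 553, 562, 477 and 520 in wild types, and met at 562 in M4 and M125. Its difference was 0.29 ± 0.10 (95% interval 0.058 to 0.52, adjusted p = 0.341, exact permutation p = 0.0571). Within day 1 the differences were 0.57 for Pdk2, 0.69 and 0.36 for the pair of Pdk1 probe sets and 0.49 for Pdk3, all in the same direction as over the 7 arrays.

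**Figure D1:**
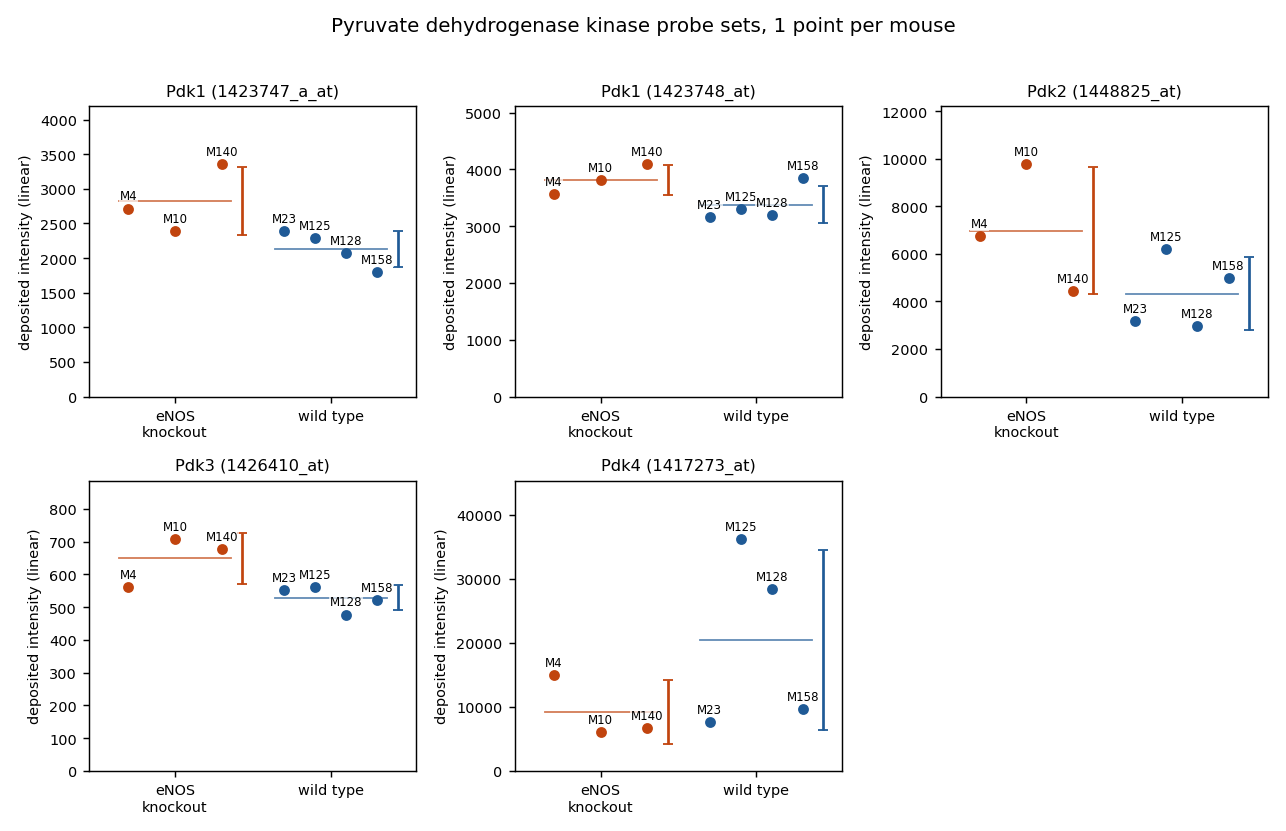
Deposited intensity (linear axis from 0) of the 5 kinase probe sets, eNOS knockout left and wild type right in each panel. Each point is 1 mouse with its number, the horizontal line is the group mean and the bar beside it is ± 1 SD (n = 3 knockout and 4 wild type). Pdk4 separates M125 and M128 from the other 5 mice, whereas Pdk1, Pdk2 and Pdk3 have higher knockout means with groups that overlap or touch.

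None of the 13 probe sets passed an adjusted p of 0.05 in limma, as was the case for 0% of the 13836 tested probe sets, and their adjusted p ran from 0.29 to 0.813. At an unadjusted p under 0.05 stood 6 of the 13, against 11.8% of all tested probe sets. Of these, 3 were higher in the knockouts (Pdk1 1423747_a_at, Pdk3 and Pdha1 1449137_at), against 6.57% of all, and 3 were lower (Pdhb 1448214_at and Dlat 1426264_at and 1452005_at), against 5.25%. The groups did not overlap at 3 of 13, against 9.3% of all, 1 of them higher (4.97% of all) and 2 lower (4.34% of all). The median difference was -0.11 over the 13 and -0.0023 over all tested probe sets. By role, 4 of 5 kinase probe sets were higher in the knockouts (median 0.29), and 6 of 8 subunit probe sets were lower (median -0.31). With day as a fixed block, 4 of 13 stood at that p (16% of all): Pdha1 1449137_at and Dlat 1452005_at again, and Pdk4 and Dld, which were not among the 6. With day as a random block 5 of the 6 did (11.4% of all), without Dlat 1426264_at. Several probe sets of 1 gene are not independent. In whole tissue, fewer cells of a type and less RNA per cell cannot be told apart.

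The kinase isoforms were then compared within arrays, as the log2 difference between the brightest probe sets of each gene pair, which removes what scales a whole array. Pdk4 relative to Pdk2 was 1.15, -0.67 and 0.58 in knockouts against 1.27, 2.54, 3.25 and 0.96 in wild types. M10, with the lowest Pdk4 and the highest Pdk2 of all 7 mice, had the lowest value, and M4 lay above M158. The means were 0.35 ± 0.93 in knockouts and 2.004 ± 1.08 in wild types, a difference of -1.65 (exact permutation p = 0.143, 0.343 adjusted over the 6 pairs). Pdk4 relative to Pdk3 averaged 3.68 ± 0.89 in knockouts and 4.94 ± 1.14 in wild types, a difference of -1.26 (exact permutation p = 0.2). Pdk4 relative to Pdk1 averaged 1.15 ± 0.80 in knockouts and 2.30 ± 1.16 in wild types, a difference of -1.15 (exact permutation p = 0.229). The 3 pairs without Pdk4 had smaller differences, of 0.50 for Pdk2 over Pdk1, 0.39 for Pdk2 over Pdk3 and -0.11 for Pdk1 over Pdk3. All 6 pairs overlapped between groups, and the adjusted exact p was 0.343 or 0.4 for each, which does not show that the isoforms moved alike. Within day 1 the differences of Pdk4 relative to Pdk2, Pdk1 and Pdk3 were -2.67, -2.45 and -2.59, M140 minus M128. A ratio between probe sets depends on their own sensitivities, so only its difference between mice was read.

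Among the 4 wild types Pdk4 had an unusually wide spread. On the log2 scale M125 lay 1.13 and M128 0.77 above the wild-type mean, and M158 and M23 lay at -0.78 and -1.12, a range of 2.24 that exceeded the range of 99.9% of tested probe sets. Pdk2 exceeded 95% of them, and the other members ranged from 0.14 to 0.71. No other kinase followed Pdk4: Pdk2 was high in M125 and M158, Pdk1 1423747_a_at was highest in M23, Pdk1 1423748_at in M158, and Pdk3 differed little. Of the 12 other member probe sets, 1 (Pdhb 1416090_at) put the wild types in the order of Pdk4, M23 lowest, then M158, M128 and M125, over a range of 0.14. The same order was found for 6.23% of all tested probe sets. Over all 7 arrays the Pearson correlation with Pdk4 was -0.171 for Pdk2, -0.65 for Pdk3, -0.333 and -0.617 for Pdk1, 0.662 for Dld and 0.661 for Pdhb 1416090_at. These are descriptions over 7 points that share their array, its scaling and its RNA. The Gapdh ratio had the wild types in the order of Pdk4 too, and so did the atrial Myl7. Among knockouts their order was another, as M140 had the highest Gapdh ratio with a Pdk4 of 6608, and M10 the most Myl7 with a Pdk4 of 6120. Their part in the spread of Pdk4 was not tested.

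The genes whose pattern was most like that of Pdk4 were ranked by Pearson correlation over the 7 arrays, among 1717 probe sets with a range of at least 1 on the log2 scale. The first was Angptl4, a secreted inhibitor of lipoprotein lipase (r = 0.931), with 1336, 1190 and 1278 in knockouts against 1319, 3609, 3327 and 1541 in wild types. The second was Plin5, a coat protein of lipid droplets in oxidative tissue (r = 0.909), with 2864, 2864 and 2054 in knockouts against 2625, 6089, 4356 and 2735 in wild types. The third was Ucp3, a carrier of the inner mitochondrial membrane in muscle (r = 0.872), with 594, 686 and 569 in knockouts against 662, 1418, 1168 and 679 in wild types. In all 3, as in Pdk4, the pair M125 and M128 stood above the other 5 mice, and M23 and M158 lay within or close to the knockout range. Their log2 differences were -0.80 ± 0.36 for Angptl4, -0.53 ± 0.31 for Plin5 and -0.59 ± 0.27 for Ucp3, with adjusted p in limma of 0.436, 0.562 and 0.446. A second Ucp3 probe set (1420658_at) differed by -0.068 ± 0.18 and did not have the wild-type order of Pdk4. Next came Echs1 (r = 0.853), Tmem140 (0.847), Hmox1, which degrades heme (0.839), Cpt2 (0.832), Hadha (0.83), Ctsf, a lysosomal protease (0.818) and Dcun1d5 (0.814). Echs1, Cpt2 and Hadha encode enzymes of mitochondrial fatty acid oxidation. Cpt2 was the only one of the 10 whose groups did not overlap, at 10246, 8268 and 6682 in knockouts against 10474, 14757, 14158 and 12341 in wild types (log2 difference -0.63 ± 0.18, adjusted p = 0.276). That is close to the share of all tested genes, of which 10.2% had no overlap, 4.88% with the knockouts lower. All 10 had M125 and M128 on top, which the ranking favours.

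**Figure D2:**
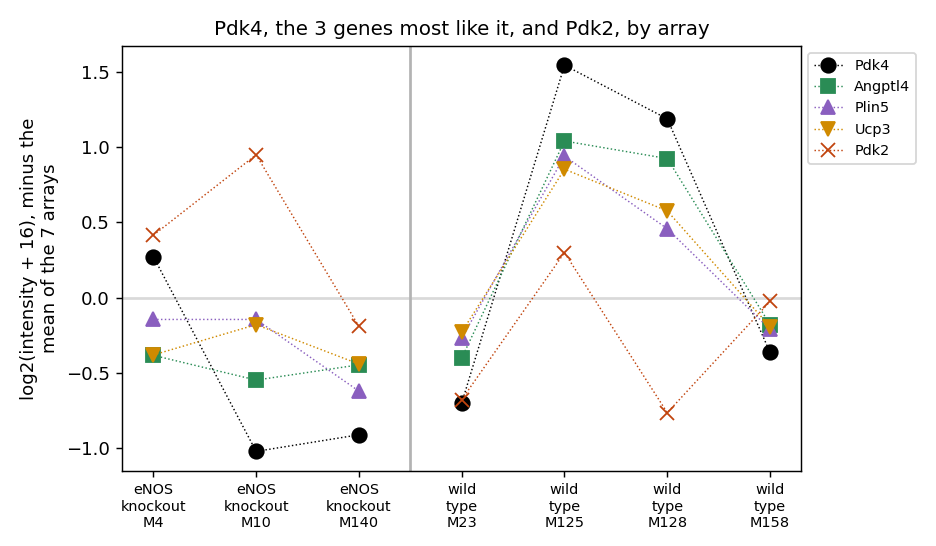
log2(intensity + 16) minus the mean of the 7 arrays (vertical axis) for Pdk4, the 3 genes most like it and Pdk2, with the 3 eNOS knockouts left of the grey line and the 4 wild types right of it. Each point is 1 mouse, and dotted lines only join the points of 1 gene within a group. Pdk4, Angptl4, Plin5 and Ucp3 peak in M125 and M128, while Pdk2 peaks in knockout M10.

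Since Pdk4 had its high values in the same mice as Plin5 and the brighter Ucp3 probe set, the 250 bases before the start of these genes are shown from RefSeq (GRCm38.p6), at chr6:5496279-5496528 (minus strand) for Pdk4, chr17:56117549-56117798 (minus strand, the first of 2 windows) for Plin5 and chr7:100472741-100472990 (plus strand) for Ucp3. They are given 5′ to 3′ on the strand of the gene, with capitals for the matches, on either strand, to 4 motifs: AGGTCA (the nuclear receptor half-site), GTAAACA (forkhead), CCAAT (the CCAAT box) and GGGCGG (the GC box), none of which overlapped another.
Pdk4: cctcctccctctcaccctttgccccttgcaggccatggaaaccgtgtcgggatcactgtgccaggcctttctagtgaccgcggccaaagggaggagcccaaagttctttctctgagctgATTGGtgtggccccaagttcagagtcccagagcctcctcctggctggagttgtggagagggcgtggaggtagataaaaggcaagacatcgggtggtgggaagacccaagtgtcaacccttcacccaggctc
Plin5: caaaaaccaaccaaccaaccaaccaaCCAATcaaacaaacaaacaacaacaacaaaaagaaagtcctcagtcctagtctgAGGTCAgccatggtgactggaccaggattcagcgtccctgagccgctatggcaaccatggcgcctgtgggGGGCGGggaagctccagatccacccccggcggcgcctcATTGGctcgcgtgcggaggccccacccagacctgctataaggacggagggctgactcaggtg
Ucp3: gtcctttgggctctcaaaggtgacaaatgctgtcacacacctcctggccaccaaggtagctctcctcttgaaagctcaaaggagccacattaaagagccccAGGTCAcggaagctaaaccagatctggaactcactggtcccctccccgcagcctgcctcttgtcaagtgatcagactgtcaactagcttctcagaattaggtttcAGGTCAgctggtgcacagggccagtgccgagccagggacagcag
The half-site AGGTCA stands 2 times in the Ucp3 window, 1 time in that of Plin5 and 0 times in that of Pdk4, and 14% of 32851 RefSeq windows of this length hold it. The Pdk4 window holds 1 CCAAT box, on the opposite strand, and the Plin5 window holds 2 CCAAT boxes and 1 GC box. Of all windows, 33.8% hold a CCAAT box, 32.7% a GC box and 3.17% the forkhead letters, which are in none of the 3. A match here is a description of these letters, and a missing match says nothing about sites elsewhere.

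The subunits of E1 lay in opposite directions on average, Pdha1 higher and Pdhb lower in the knockouts. The brighter Pdha1 probe set (1418560_at) read 37276, 38029 and 37435 in knockouts against 33616, 37138, 37627 and 37503 in wild types, nearly level, at 73.8% to 85.6% of the upper limit. The dimmer one (1449137_at) read 6882, 6057 and 6076 in knockouts against 4665, 5851, 4038 and 5321 in wild types, and every knockout lay above every wild type. Its difference was 0.36 ± 0.15 (95% interval 0.0043 to 0.72, adjusted p = 0.417, exact permutation p = 0.0571), and that of the brighter set was 0.045 ± 0.053. For Pdhb, the dimmer probe set (1448214_at) read 1791, 1503 and 1665 in knockouts against 2293, 1895, 2299 and 2315 in wild types, all knockouts below all wild types. The difference of -0.41 ± 0.12 (95% interval -0.69 to -0.13) had the smallest adjusted p of the 13 probe sets, 0.29, with an exact permutation p of 0.0571. The brighter one (1416090_at) read 34454, 33465 and 37538 in knockouts against 35968, 39721, 38526 and 36984 in wild types, at 75.3% to 89.98% of the upper limit, and differed by -0.11 ± 0.059 (adjusted p = 0.546). No value of the bright pair was at the limit itself. Differences can be compressed near it, and whether this made those of the bright pair smaller was not tested.

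The alpha and beta subunits form 1 enzyme, and their ratio was therefore taken within each array, a comparison chosen after the values were seen. For the dimmer pair, Pdha1 over Pdhb on the log2 scale was 1.93, 2 and 1.86 in knockouts against 1.02, 1.62, 0.81 and 1.20 in wild types. The means were 1.93 ± 0.071 in knockouts and 1.16 ± 0.34 in wild types, a difference of 0.77. That the groups do not overlap here follows from the 2 probe sets themselves, so no test is given. For the brighter pair it was 0.11, 0.18 and -0.0039 in knockouts against -0.098, -0.097, -0.034 and 0.020 in wild types. Here 2 of 3 knockouts lay above all wild types, and the difference was 0.15.

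The core and the shared subunit were lower on average in the knockouts. Dlat, the E2 acetyltransferase, was lower at all 3 of its probe sets. The set 1452005_at read 5172, 5116 and 4899 in knockouts against 7266, 5932, 9730 and 6457 in wild types, with no overlap, little spread among knockouts and the highest value in M128. Its difference was -0.51 ± 0.18 (95% interval -0.92 to -0.10, adjusted p = 0.341, exact permutation p = 0.0571). The set 1426264_at read 5553, 4760 and 6102 in knockouts against 6638, 6063, 7804 and 7139 in wild types, where M140 lay just above M125, and differed by -0.34 ± 0.14 (adjusted p = 0.409). The set 1426265_x_at, of a type whose probes can also bind related transcripts, read 7230, 4420 and 7230 in knockouts against 7669, 7230, 8993 and 7230 in wild types. It held 1 value on 4 arrays and differed by -0.34 ± 0.20 (adjusted p = 0.567), but by -0.0997 without M10 and -0.13 with array weights. Dld, the E3 enzyme that the complex shares with other dehydrogenases, read 4837, 5407 and 4237 in knockouts against 5141, 5741, 7414 and 5267 in wild types. Only M10 overlapped the wild types, and the difference was -0.28 ± 0.17 (adjusted p = 0.579), or -0.16 without M128, the highest wild type. All 6 probe sets of Pdhb, Dlat and Dld were thus lower in the knockouts on average. At an unadjusted p under 0.05 stood 3 of them, against 5.25% of all tested probe sets lower at that p. This grouping leaves out Pdha1, which was higher on average, and 3 of the 6 are probe sets of Dlat and not independent. Within day 1 the differences were -0.46 and -0.037 for Pdhb, -0.35, -0.31 and -0.99 for Dlat and -0.80 for Dld, all in the same direction as over the 7 arrays. For Pdha1 they were 0.59 for the dimmer set, and -0.0074 for the brighter one, which turned.

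**Figure D3:**
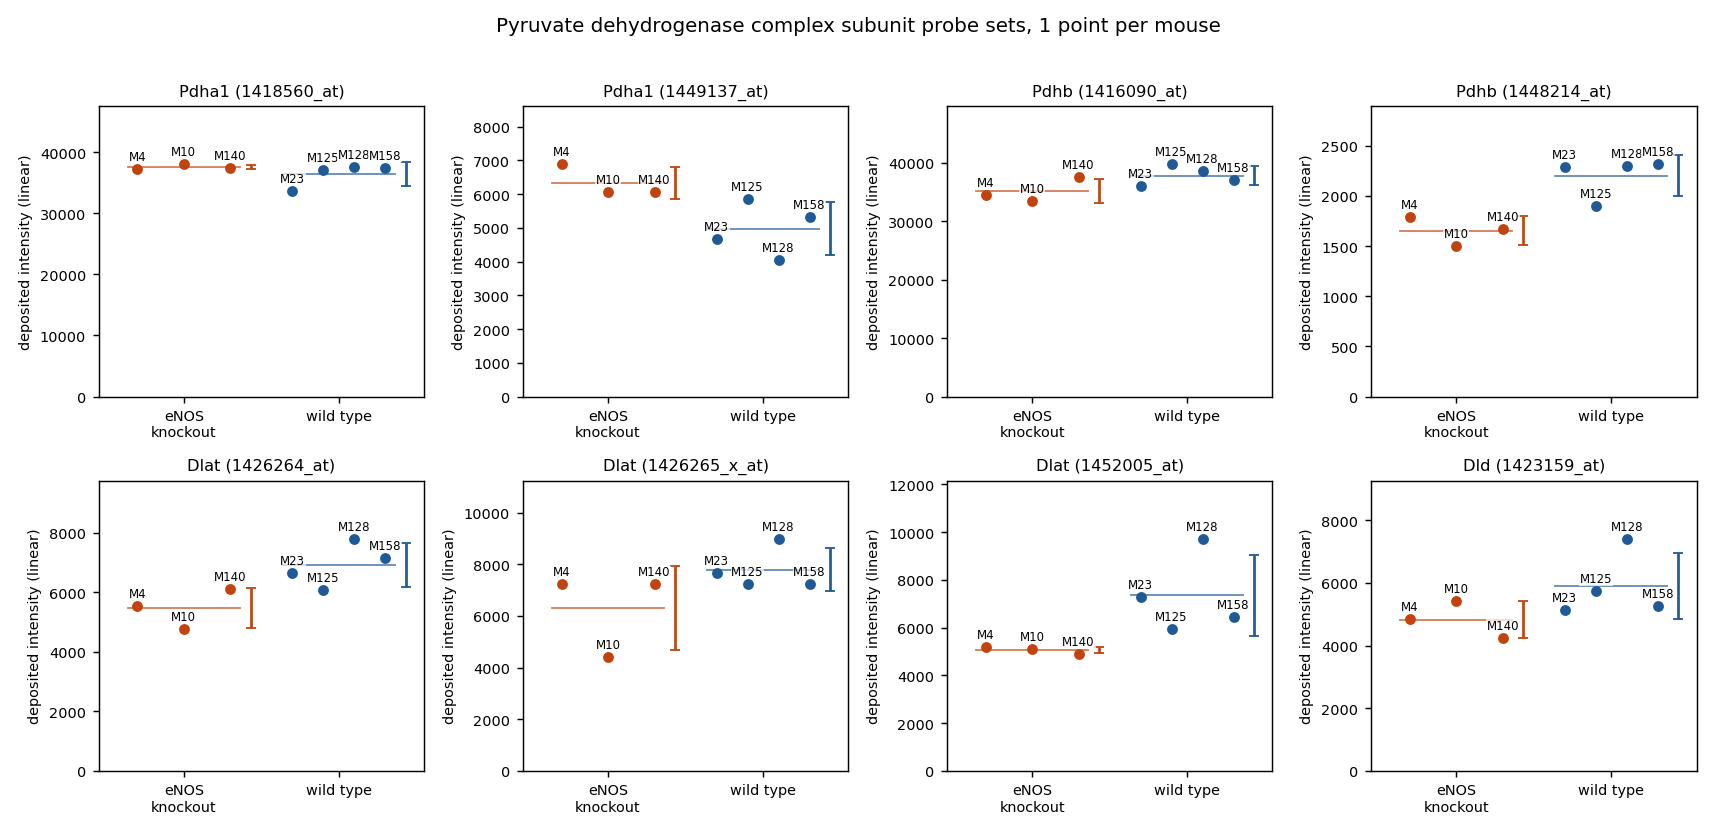
Deposited intensity (linear axis from 0) of the 8 probe sets of the complex subunits, eNOS knockout left and wild type right in each panel. Each point is 1 mouse with its number, the horizontal line is the group mean and the bar beside it is ± 1 SD (n = 3 knockout and 4 wild type). The groups do not overlap for Pdha1 1449137_at (higher in knockouts) and for Pdhb 1448214_at and Dlat 1452005_at (lower in knockouts).

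**Figure D4:**
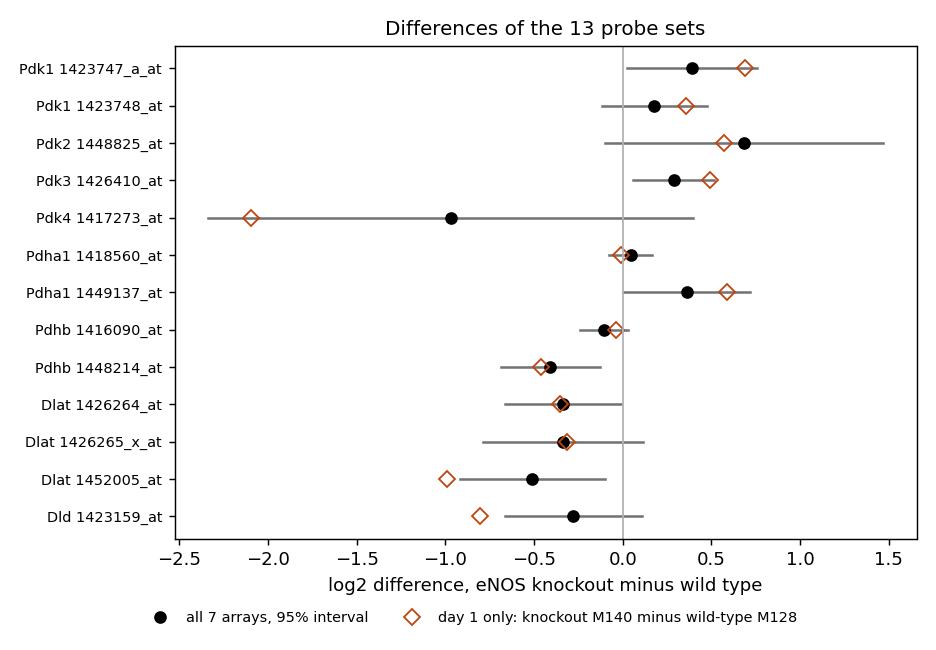
Difference of log2(intensity + 16), eNOS knockout minus wild type, for the 13 probe sets (rows). Filled circles with grey lines are the estimate over all 7 arrays and its 95% interval before adjustment, and open diamonds are knockout M140 minus wild-type M128, hybridized on day 1. Pdk4 has the widest interval, -2.34 to 0.40. In the 6 rows of Pdhb, Dlat and Dld, both circle and diamond lie left of 0. The intervals of Pdhb 1416090_at, Dlat 1426265_x_at and Dld cross 0.

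Genes around the complex were counted by lists, each gene by its brightest tested probe set, and none passed an adjusted p of 0.05 (0% of 8869 genes). At an unadjusted p under 0.05 stood 12.1% of all genes, 6.74% higher and 5.4% lower. The groups did not overlap at 10.2%, 5.28% higher and 4.88% lower, and the median difference of all genes was -0.0027. No probe set named the phosphatases Pdp1 and Pdp2 or their regulatory subunit Pdpr alone. Of 13 genes of pyruvate entry and fates, 10 were tested, 1 was higher and 1 lower at that p, and the median was -0.0065. The higher one was Me2, the mitochondrial malic enzyme that makes pyruvate, at 654, 582 and 596 in knockouts against 507, 535, 480 and 491 in wild types (0.27 ± 0.072, adjusted p = 0.259). It was dim, below the median intensity of the array in every mouse. The lower one was Gpt, an alanine aminotransferase, at 1805, 2078 and 1839 in knockouts against 2326, 2943, 2374 and 2756 in wild types (-0.44 ± 0.13, adjusted p = 0.289). Neither overlapped between groups. Mpc1, a subunit of the mitochondrial pyruvate carrier, read 16371, 19736 and 23718 in knockouts against 18346, 23960, 33163 and 23234 in wild types, which overlapped (-0.29 ± 0.20, adjusted p = 0.642), and Mpc2 had no probe set of its own. Of the lactate dehydrogenase subunits, Ldha differed by 0.086 ± 0.061 (adjusted p = 0.65), and the brightest Ldhb probe set was at the upper limit on 6 of 7 arrays.

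The enzymes of the complex need lipoate, thiamine, coenzyme A and FAD, and of 19 genes that make or carry these, 11 were tested. At the unadjusted p, 0 were higher and 2 lower, the groups did not overlap at 4, all lower, and the median was -0.18. Fdx1, a ferredoxin that human cells need for lipoylation, read 11810, 11829 and 12979 in knockouts against 15528, 15109, 18656 and 19099 in wild types (-0.48 ± 0.11, adjusted p = 0.218). Pank1, which starts the synthesis of coenzyme A, read 2234, 3342 and 2477 in knockouts against 3706, 4353, 4802 and 3422 in wild types (-0.61 ± 0.19, adjusted p = 0.295). In both, every knockout lay below every wild type, as for the lipoyl transfer enzymes Lipt1 (-0.18 ± 0.078) and Lipt2 (-0.35 ± 0.15), each with an adjusted p of 0.433. Within day 1 the differences were -0.52 for Fdx1 and -0.95 for Pank1. Of 12 genes of the sister dehydrogenase complexes and their kinase, 8 were tested, 0 higher and 2 lower at that p, none without overlap, with a median of -0.11. The 2 were Dbt, the E2 of the branched-chain complex (-0.57 ± 0.20, adjusted p = 0.363), and Bckdk, its kinase and a relative of the Pdk proteins (-0.43 ± 0.17, adjusted p = 0.388). Both turned within day 1, to 0.18 and 0.068.

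Of 22 transcription factors and coactivators known to act on Pdk4, 19 were tested, with 0 higher and 2 lower at the unadjusted p, 2 without overlap, both lower, and a median of -0.097. Ppara and Ppard, the fatty acid receptors, were too dim to test. Ppargc1a, the coactivator PGC-1alpha, was lower at all 5 of its probe sets. The brightest (1434100_x_at) read 1405, 1933 and 1258 in knockouts against 3540, 1933, 2767 and 2222 in wild types and met at the shared value of M10 and M125 (-0.75 ± 0.23, adjusted p = 0.297). Another (1456395_at) read 738, 833 and 1149 in knockouts against 4126, 4237, 3351 and 3153 in wild types, with no overlap and a difference of -2.03 ± 0.18 (adjusted p = 0.0531, just above the threshold). Its probe sets thus disagreed in size, and none had the wild-type order of Pdk4. Rxrg, a partner of the fatty acid receptors, differed by -0.36 ± 0.13 (adjusted p = 0.341) and the estrogen-related receptor Esrra by -0.19 ± 0.12 (adjusted p = 0.605), both without overlap.

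Of 25 genes that fatty acids induce through PPAR alpha, 17 were tested, and 15 of them were lower on average in the knockouts, with a median of -0.27. Of the 17, however, Fabp3 and Lpl stood at the upper limit in all 7 mice, Hadhb in 3 and Ech1 in 2, and could show no or only a compressed difference. Of the 13 below the limit everywhere, a division made after the values were seen, 11 were lower, 4 at the unadjusted p and 5 without overlap, with a median of -0.37. Over all 17, at the unadjusted p 0 were higher and 5 lower, and the groups did not overlap at 6, all lower. The 5 were Acot1, an acyl-CoA thioesterase (-1.05 ± 0.34, adjusted p = 0.315), Cd36, a fatty acid transporter (-0.24 ± 0.077, 0.308), Acadvl (-0.27 ± 0.077, 0.277), Mlycd (-0.68 ± 0.16, 0.224) and Ech1, at 37110, 43708 and 36846 in knockouts against 44818, 44145, 45291 and 44815 in wild types. The wild types M125 and M128 were at the limit for Ech1 and the other two were close to it, so its difference of -0.20 (adjusted p = 0.316) is a bound and may be larger. Acot1 read 835, 954 and 421 in knockouts against 1187, 2493, 1237 and 1231 in wild types, so that M125 alone stood high. Cd36 read 13133, 14432 and 14403 in knockouts against 16371, 16144, 17090 and 16407 in wild types, with little spread in either group at this, its brightest, probe set. A second Cd36 set (1450884_at) had no overlap. It read 15043 in M128 and 8622, 8435 and 8238 in M125, M23 and M158, so that only M128 stood high. Another Cd36 set (1450883_a_at) differed by -0.12 ± 0.14 with overlap. The spread of Pdk4 was thus shared by some of this list and not by others. The wild types followed the order of Pdk4 in 5 of the 17 genes (Ucp3, Angptl4, Acot1, Plin5 and Hadha), or 29.4%, against 5.63% of all tested genes. M125 and M128 were the highest of the 7 mice in 6 of the 17, those 5 and Plin2, or 35.3%, against 9.18% of all tested genes. For Acot1 both calls rest on 1237 in M128 against 1231 in M158. These shares are descriptions, since 4 of the 17 were among the 10 genes ranked for likeness to Pdk4 on these same arrays. The Gapdh ratio and Myl7 had the wild types in this order too. Only the brightest probe set of a gene was counted: the second Ucp3 set lacked the order, and another Lpl set (1431056_a_at) had it. Cpt1b had no probe set of its own.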

How the data were processed

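Single-colour MOE430A arrays of 7 left ventricles were used, 3 eNOS knockout and 4 wild type. The deposited values are intensities on a linear scale, with similar medians on all arrays (671 to 699). The sources used here do not give the software, the background correction or the scaling. Per the file headers, the experiment sheets gave hybridization day and chip lot, which coincided. A comment for M23 mentions that 2 processings were merged.

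A platform table named 1 gene for 20380 of 22626 probe sets without controls, several for 691 and none for 1555. By gene number, 20351 were found in the GRCm38.p6 gene table. Exactly equal deposited intensities on 2 or more arrays occurred in 49.9% of probe sets. Array pairs correlated at 0.946 to 0.986 and shared at most 7.18% of values exactly, so none was taken for a duplicate. The number of arrays limits the precision.

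Probe sets above the 40th percentile of their own array on at least 3 arrays were tested (13836) with limma 3.58.1 in R 4.3.3 (lmFit, eBayes with trend, two-sided) on log2(intensity + 16), which understates differences of dim probe sets. P-values were adjusted by Benjamini-Hochberg over all of them. The kinase ratios used exact two-sided permutation tests, adjusted over 6 pairs. The fit was tested on simulated data. The labels do not say whether the mice came from separate litters, so p-values measure the spread between these mice. The genes and lists were chosen with earlier results of these data known. Named genes are all members, listed genes at an unadjusted p under 0.05 or without overlap, a few fixed by name, and the 10 most like Pdk4. The further probe sets of Ucp3 and Ppargc1a were picked with their values known. The alternatives tried were the offset, normalization, background correction, filter, variance model, array weights, day as a block and arrays left out.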

Additional observations from a re-analysis of the deposited data

Results flagged for a closer look

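In 3 of 50 sets of wild-type values examined, 1 mouse stood far from the other 3, with a gap to its nearest neighbour that was above Dixon's 95% critical share of the group's whole range. By chance about 1 set in 20 does so. For Pdha1 1418560_at the share was 0.884, with M23 low at 33616. For Pdhb 1448214_at it was 0.952, with M125 low at 1895, which was still above all knockouts. For Acot1 1449065_at it was 0.944, with M125 high at 2493. The 3 knockouts were too few for this comparison.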

How the results depend on the processing

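Over 246 values of the 13 probe sets under the alternatives, 245 kept their direction and 0 passed an adjusted p of 0.05 (range 0.0803 to 1). Pdha1 1418560_at reversed to -0.0074 with day as a fixed block and within day 1; that block rests on M140 and M128 alone. Probe sets past the adjusted threshold on the whole array numbered 0 in the reported fit, 1 with the 60th percentile filter, 619 with array weights, 1 with day as a fixed block, 2 without M10 and M125 and 1 without M23 and M158. Leaving out 1 mouse gave 0 to 74, with 74 without M10 and 27 without M140. Members at an unadjusted p under 0.05 (6) numbered 3 with the 60th percentile filter (13.5% of all) and 2 without M23 and M158 (12.9%). With 1 mouse left out they numbered 3 to 7. There were 3 without M4 (5.79% of all), M10 (11.5%), M128 (11.8%) or M158 (9.64%), and 7 without M125 (11.4%). Members without overlap (3) numbered 7 with quantile normalization (12.1% of all), 7 without M10 and M125 (27.6%) and 8 without M23 and M158 (28%). With 1 mouse left out they numbered 3 to 6. There were 5 without M4 (12.4% of all), M10 (21.8%) or M125 (14.8%), and 6 without M140 (19.2%). Within day 1 the log2 ratio of Pdk4 to Pdk1 differed by -2.45 and that of Pdk4 to Pdk3 by -2.59, M140 minus M128. With array weights the difference of Pdk4 was -0.14 (adjusted p = 0.903). The cause of these shifts was not tested. The range of Pdk4 among wild types was 2.18 to 2.25 under the offsets, quantile normalization and normexp, the settings it was computed for. Another Pdk4 probe set could not be tried, as the array names 1. No paired analysis was possible because no mouse number occurs in both groups. Signal near the upper limit could restrict Pdha1 1418560_at, Pdhb 1416090_at and the high Pdk4 values, which was not tested.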

Other observations

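Of the 1717 probe sets compared with Pdk4, the one with the lowest correlation was that of Nppb, which encodes the ventricular natriuretic peptide B (r = -0.892 over 7 arrays, chosen after its value was seen). It read 44868, 43350 and 45540 in knockouts against 33621, 8385, 8423 and 35703 in wild types. M125 and M128, the wild types with the most Pdk4, had the least Nppb, and in knockouts M4 and M140 the probe set was at the upper limit of the array and in M10 close to it. The knockout level is therefore only a lower bound, no exact difference is given, and the correlation rests on compressed values.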
